A study of Caenorhabditis elegans with 4 samples.

Results

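RNA polymerase II peaks on chromosome V were taken from ChIP-seq (chromatin immunoprecipitation and sequencing) of Caenorhabditis elegans hermaphrodites at the third larval stage, L3. Chromosome V carried 443 of the 4043 peaks in 3 deposited lists, of which 178 were combined-list peaks, 128 came from replicate 1 and 137 from replicate 2. Peaks that overlapped by at least 1 bp were merged, which gave 210 regions on V out of 1922 on all chromosomes. A peak was taken by its chromosome alone, so neither its width nor its strength entered the choice. The chromosome and the zones used below were themselves chosen with earlier results of these data known. The regions covered 616 kb, or 2.95% of the 20.8 Mb between the start of V and its last peak.

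The series held 2 polymerase ChIP samples and 2 input DNA samples. All 4 came from strain OP54, grown at 20 °C and crosslinked with 2% formaldehyde. This strain carries the unc-119(ed3) mutation on III and the transgene wgIs54, which holds a rescuing copy of unc-119 and the Hox gene egl-5 fused to TY1, EGFP and 3xFLAG. The transgene was introduced by bombardment. Every sample carried it, and the design holds no untagged strain, no second stage and no treatment. ChIP replicate 1 had 1959480 uniquely mapped reads and replicate 2 had 2364309, and both were compared with 1 merged input of 1861526 unique reads. The combined list was called on the merged reads of both replicates and is not independent of them. Of the reads, 39.8% and 57.0% mapped uniquely in the ChIP replicates, and 11.7% and 7.5% in the input samples. Whether the replicates were separate cultures is not stated, so the spread between them may be technical.

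The antibody, 8WG16, binds the repeated heptapeptide of the C-terminal domain of AMA-1, the largest polymerase subunit, and prefers the form with little phosphorylation, which is found mainly near gene starts. C. elegans autosomes have a gene-rich centre with little recombination, where many housekeeping genes lie, and arms with more recombination, more repeats and more young gene families. Chromosome V is known for its large families of chemoreceptor and nuclear hormone receptor genes, many of them used by few cells. Whole larvae were used, so a peak made by strong binding in few cells and one made by weak binding in many cells cannot be told apart. Peaks were not assigned to genes, since no annotation of the build of the lists, WormBase WS220, was used here.

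The called polymerase regions on V were gathered in the chromosome's centre. The centre, the middle 50% of the span (from 5.21 to 15.6 Mb), held 158 of the 210 regions, or 75.2% (exact 95% interval 68.8 to 80.9). The left arm held 31 regions (14.8%, interval 10.3 to 20.3) and the right arm 21 (10.0%, interval 6.3 to 14.9), each on 25% of the span. Against shares in proportion to the span, the centre was above (exact binomial test, Benjamini-Hochberg adjusted over 3 zones, p = 3.81e-13) and both arms were below (adjusted exact binomial p = 0.000422 for the left and 9.23e-08 for the right). In regions per Mb these counts were 15.2 in the centre, 5.95 in the left arm and 4.03 in the right arm.

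Each replicate list showed the same order of centre and arms. The centre held 101 of 128 peaks (78.9%) in replicate 1 and 100 of 137 (73.0%) in replicate 2, a mean of 75.9% ± 4.18 (SD, n = 2). Peak density was 9.64 ± 0.0678 per Mb in the centre, 3.45 ± 0.543 in the left arm and 2.69 ± 0.814 in the right arm (SD, n = 2). Every value of the centre thus lay above every value of the arms, while the arms themselves differed by about the spread between replicates. Neighbouring peaks are not independent, so the p-values of these and the following counts are too small to an unknown degree.

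**Figure D1:**
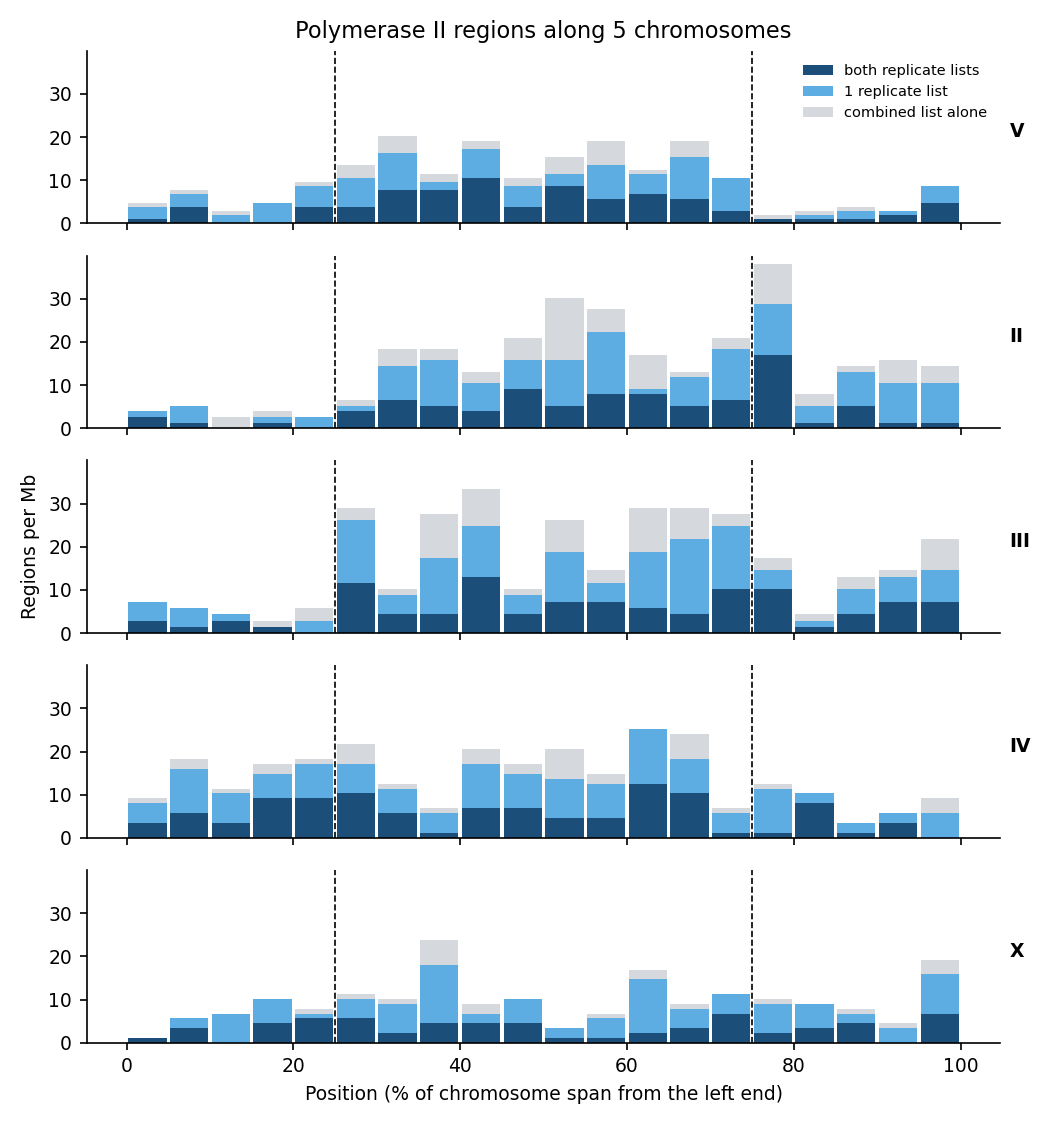
Regions per Mb in bins of 5% of the span of V, II, III, IV and X, with dashed lines between the arms and the centre. Bars are stacked by whether a region was in both replicate lists, in 1 or in the combined list alone. On V, the bins of the centre hold 10.6 to 20.1 regions per Mb, and the first bin of the right arm holds 1.92.

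The change from centre to arm was abrupt on the right and more gradual on the left. In windows of 1 Mb, a division made after the positions were seen, the 9 windows from 6 to 15 Mb held 11 to 20 regions each and 147 in all, or 70.0% of the chromosome's regions. The next window, from 15 to 16 Mb, held 3, after 19 in the window before it. The 5 windows from 15 to 20 Mb held 15 regions together, or 3.0 per Mb. On the left, the windows from 4 to 6 Mb held 10 and 9 regions, between the 4 to 7 in each window from 0 to 4 Mb and the 20 in the window from 6 to 7 Mb. Replicate 1 and replicate 2 each had 93 peaks between 6 and 15 Mb.

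The far right end of V went against the sparse arm around it. Its last 0.848 Mb, 16.3% of the right arm, held 9 of the 21 right-arm regions and 49.7% of their base pairs, against 2.75 regions per Mb in the rest of that arm. Of these 9 regions, 5 were in both replicate lists. The strongest lay at V:20162108-20165099, with a q-value of 7.71e-50 in replicate 1, 1.03e-152 in replicate 2 and 4.57e-209 in the combined list. The q-value is the authors' false discovery rate for a peak, so smaller values mark stronger peaks. The last region, V:20844514-20848361, was in replicate 2 (q 2.98e-42) and the combined list (q 4.39e-42), with no peak in replicate 1. This stretch was picked out after its counts were seen and was not tested. In bins of 5% of the span, the last bin of V held 8.63 regions per Mb, after 2.88 in the bin before. The last bin was also the higher on III (21.8 after 14.5), IV (9.16 after 5.72) and X (19.2 after 4.53). On II it was not (14.4 after 15.8). Spans end at the last peak, so the last stretch of each ends in a peak by definition.

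Regions were rarer on V than on the chromosomes used as background, II, III, IV and X, when these were pooled, though not rarer than on X alone. V held 10.1 regions per Mb and the 4 others 13.7, a ratio of 0.737 (exact 95% interval 0.631 to 0.857, exact binomial p = 4.92e-05). The replicate lists gave ratios of 0.807 and 0.724, or 0.766 ± 0.0585 (SD, n = 2). Chromosomes II, III and IV had 14.8, 16.7 and 14.3 regions per Mb, and X had 9.73, so V and X were the lowest of those compared. Chromosome I was not used for comparison. Of the 1922 regions of the series, 210 lay on V and 877 on II, III, IV and X. A large part of the series thus lay outside these comparisons, and the lists were uneven between chromosomes.

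The centre held a larger share of the regions on V than on the other autosomes compared. Divided in the same way, II, III and IV together had 64.4% of their 705 regions in the centre, against 75.2% on V (Fisher's exact test, p = 0.00342). Taken separately, a comparison added after the data were seen, V lay above II, at 63.1% (Fisher's exact p adjusted over 3 chromosomes = 0.0105), and IV, at 59.6% (adjusted Fisher's exact p = 0.00147). It was not distinguishable from III, at 70.9% (adjusted Fisher's exact p = 0.334). In density, the arms of V held 4.99 regions per Mb and those of II, III and IV 10.8, a ratio of 0.462 (exact 95% interval 0.336 to 0.625), while the centres held 15.2 and 19.5, a ratio of 0.776 (interval 0.643 to 0.932).

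The other autosomes compared each had 1 arm above 10 regions per Mb, and V had none. The right arm of II held 18.1 regions per Mb and its left arm 3.68. The right arm of III held 14.2 and its left arm 5.23, while on IV the left arm was the denser, with 14.9 against 8.24. Both arms of V lay below 6 per Mb. The difference between the arms of different chromosomes was not tested arm by arm.

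**Figure D2:**
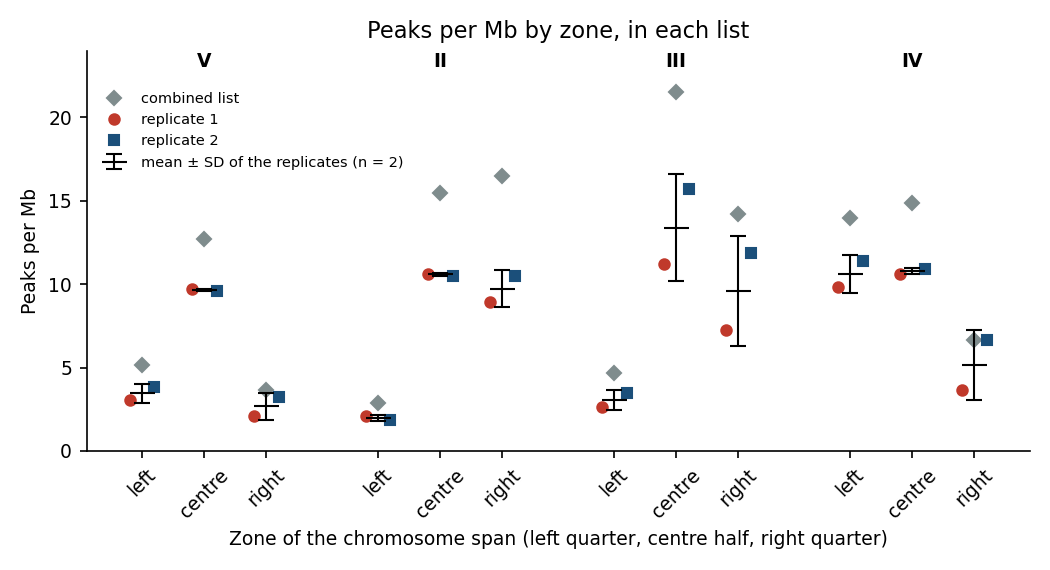
Peaks per Mb in the left arm, centre and right arm of V, II, III and IV, for the combined list (diamonds), replicate 1 (circles) and replicate 2 (squares), with the mean and SD of both replicates as bars. On V, the replicates lie at 9.69 and 9.59 in the centre and between 2.11 and 3.84 in the arms.

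The median region of each arm was stronger than that of the centre. Strength is given here as −log10 q of a region's smallest q in any list. Its median was 18.0 in the left arm, 26.0 in the right arm and 9.23 in the centre. In replicate 1 the medians of single peaks were 13.2, 17.2 and 6.85 in the same order, and in replicate 2 they were 17.4, 22.5 and 9.22, so both arms lay above the centre in each replicate. By medians of regions this order was not particular to V, since both arms lay above the centre on each background chromosome too. In the same order, the medians of regions were 9.98, 6.5 and 6.08 on II and 8.91, 13.8 and 5.77 on III. They were 10.5, 8.29 and 6.02 on IV and 21.5, 11.4 and 8.56 on X. By single peaks, both arms of III lay above its centre in each replicate, while II and IV each failed in 1 replicate. In replicate 1 the left arm of II had 4.9 and its centre 7.45. In replicate 2 the arms of IV had 6.02 and 6.41 and its centre 7.12. X was not divided by replicate list. Median widths of regions on V were 2210 bp, 2958 bp and 2162 bp in the same order, so the left arm was close to the centre. Those of single peaks were 2350.5, 3974 and 2102 bp in replicate 1 and 2815, 3221 and 2507 bp in replicate 2. Both arms were thus wider than the centre in each replicate, and this was not tested. Regions with a q under 1e-50 in any list made up 6 of 31 in the left arm (19.4%, exact 95% interval 7.45 to 37.5), 7 of 21 in the right arm (33.3%, interval 14.6 to 57.0) and 35 of 158 in the centre (22.2%, interval 15.9 to 29.4), and these intervals overlap. The left arm's share was thus below that of the centre. Over the whole of V there were 48 such regions (22.9%), against 15.7% of regions on II, III, IV and X.

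Support by the lists ranged from all 3 to 1. All 3 lists had a peak in 76 regions (36.2%), the combined list and replicate 2 in 42, the combined list and replicate 1 in 24, and the combined list alone in 35 (16.7%). A further 33 regions (15.7%, against 12.5% on II, III, IV and X) had no peak in the combined list, of which 16 were in replicate 1 alone, 8 in replicate 2 alone and 9 in both. In total, 85 regions (40.5%, exact 95% interval 33.8 to 47.4) were in both replicate lists, against 34.5% on the 4 background chromosomes. That difference did not pass (Fisher's exact test, p = 0.11). With the demand that peaks of each replicate cover at least 50% of the region it did, at 36.7% against 28.3% (Fisher's exact p = 0.0189). It did not with a q of 1e-05 or less, rows of at least 36 bp or merging across 1 kb (Fisher's exact p = 0.766, 0.089 and 0.212). These p-values were not adjusted over the alternatives.

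Regions in all 3 lists measured 3073 bp at the median, with a median strength of 33.6, against 659 bp and 3.08 for those in the combined list alone, and they held 48.4% of the base pairs. The 9 regions in both replicates without a combined-list peak were wider and stronger still, with medians of 6289 bp and 240.9. Strength is the smallest q of any list, and the combined list pools the reads of both replicates. Support by the lists and strength are thus not independent, and a rise of one with the other is partly built in. Of the 71 regions with a strength between 2 and 5, 1 was in both replicate lists. That number was 8 of 36 between 5 and 10, 18 of 26 between 10 and 20, 20 of 29 between 20 and 50, 17 of 24 between 50 and 100, and 21 of 24 above. The share in both replicates was thus 69.2% from 10 to 20 and changed little up to 100. On II, III, IV and X together it was 47.5% from 10 to 20 and 91.0% from 50 to 100, against 69.2% and 70.8% on V. In the weakest and the strongest class it was 1.43% and 83.1% there, against 1.41% and 87.5% on V, and none of these differences was tested.

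The starts and the ends of peaks shared by the replicates lay mostly within 250 bp of each other. In 81 regions each replicate had 1 peak, and overlap of these peaks follows largely from the merging. The shared stretch made up a median of 83.8% of their joint width. Starts differed by a median of 82 bp and ends by 95 bp, and 56 starts and 55 ends lay within 250 bp of each other. The peak was the wider in replicate 2 in 46 of the 81, with median widths of 2749 bp there and 2703 bp in replicate 1. A region was split into several peaks in 3 cases in replicate 1 and in 2 cases in replicate 2.

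Across the 85 regions the rank correlation of −log10 q between the replicates was 0.637 (Spearman's rho). It describes regions that share 1 input and the same chromosome, and it is given without a test. Replicate 2 had the smaller q in 53 of 85 (62.4%), and the median strength was 20.2 in replicate 2 and 9.39 in replicate 1. Regions called in 1 replicate alone are not part of this comparison. Among them are 5 of replicate 1, and none of replicate 2, with a q under 1e-50 and no combined-list peak. In 10 of the 85 regions the replicates lay 100 or more apart on the −log10 scale, each time with the smaller q in replicate 2. Of these 10, 6 had no combined-list peak. The depth of replicate 2, in uniquely mapped reads, was 1.21 times that of replicate 1, and its part in these differences was not tested.

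**Figure D3:**
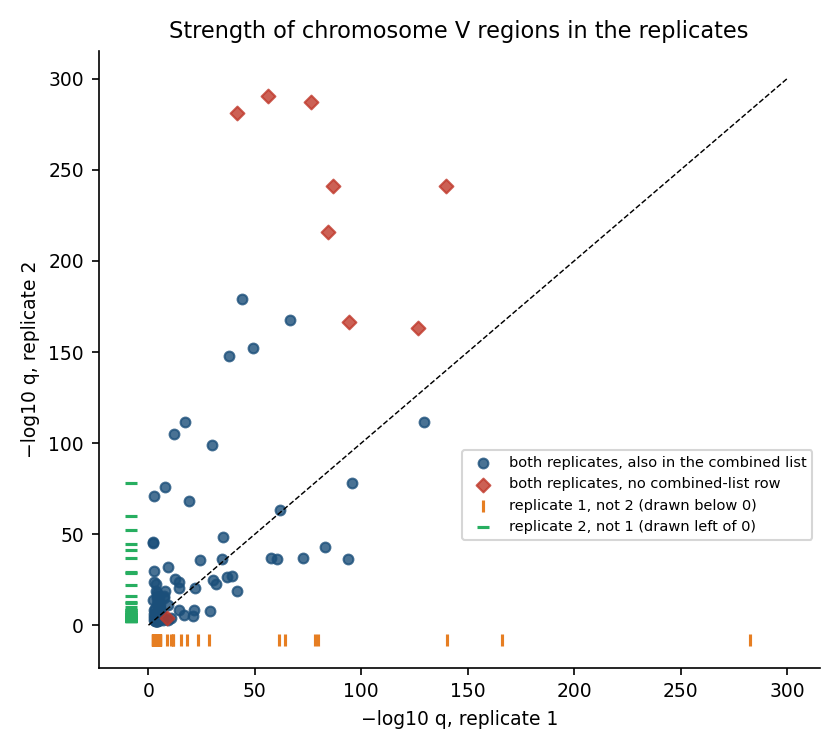
Strength (−log10 q) of chromosome V regions in replicate 1 and replicate 2, with the line of equal values dashed. Circles are regions also in the combined list and diamonds those without a combined-list peak, and ticks drawn below or left of 0 are regions with a peak in 1 replicate. Of the 11 regions with a replicate 2 q under 1e-150, 8 are diamonds.

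The strongest regions of V by any list were mostly absent from the combined list. Of the 10 with the smallest q, 7 had no combined-list peak. The first was V:11818043-11825807, a region of 7.76 kb with a q of 6.95e-57 in replicate 1 and 2.89e-291 in replicate 2. The next, V:7431692-7437980, spanned 6.29 kb and had a q of 4.54e-77 and 3.55e-288 in the same order. Its edges nearly coincided, at 7431721 and 7437980 in replicate 1 and 7431692 and 7437977 in replicate 2.

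The region V:8933443-8940408 had the widest gap between replicates, with a q of 3.14e-42 in replicate 1 and 8.4e-282 in replicate 2, although its peaks were 6933 bp and 6966 bp wide. At V:9342847-9346179 both values were small, 1.37e-140 and 1.23e-241. The remaining regions of this kind among the 10 were V:19519307-19523333, in the right arm (q 1.17e-87 and 4.76e-242), V:12548224-12551117 (q 4.25e-85 and 9.09e-217) and V:6220722-6231140, which was in replicate 1 alone (q 1.55e-283).

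The other 3 of the 10 strongest had a peak in all lists. At V:6513129-6518081 the q was 3.95e-67 in replicate 1, 4.16e-168 in replicate 2 and 9.47e-235 in the combined list, the smallest combined-list q on V. V:20162108-20165099 is the region near the right end given above. V:6275223-6279146 had a q of 4.44e-130, 3.49e-112 and 1.11e-190 in the same order, and was the only one of these 10 called in both replicates with the smaller q in replicate 1. In 74 of the 76 regions in all 3 lists, the combined q was smaller than both replicate values.

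In all, 13 regions had a replicate q under 1e-50 and no combined-list peak, 8 of them in both replicates and 5 in replicate 1 alone. They made up 6.19% of the regions on V, against 2.17% on II, III, IV and X together and 5.23% on X alone (9 of 172). They covered 73.4 kb, with a median width of 6289 bp, and 11 lay in the centre, which held 75.2% of all regions on V. In the 8 shared ones the replicate 2 q ran from 1.08e-163 to 2.89e-291 and the replicate 1 q from 3.14e-42 to 1.37e-140. Among regions that had a combined-list peak, no replicate 2 q was below 5.04e-180 and no replicate 1 q below 4.44e-130. The nearest combined-list peak lay 1361 bp to 372 kb away, with a median of 34.5 kb, and none lay within 1 kb. Neighbours at V:12548224-12551117 and V:12551474-12558527 formed a stretch of 10.3 kb called by both replicates with no combined-list peak.

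The 5 regions in replicate 1 alone were V:6220722-6231140 (q 1.55e-283), V:15563923-15570662 (q 4.73e-167), V:11887827-11890012 (q 3.72e-141), V:1803865-1806486 (q 2.73e-80) and V:14684848-14689139 (q 4.44e-79). No region with a q under 1e-50 was in replicate 2 alone without a combined-list peak. The other 20 regions absent from the combined list were weaker, with q values from 4.62e-16 to 0.00809 and a median width of 1150 bp. Of these, 1 was in both replicates, V:14362995-14367369 (q 3.03e-09 and 0.00012). Regions in both replicates without a combined-list peak made up 4.29% of V (9 of 210) and 0.57% of II, III, IV and X (5 of 877), a contrast seen after the counts were made and not tested. The files hold no q of 0, and the smallest q in any list was 1.81e-304. Whether peaks with a q of 0 were left out of a list before deposit was not tested. A peak called here in 1 replicate alone, the smallest combined-list q and the order by q thus refer to listed peaks only.

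Widths on V were close to those elsewhere. The median was 2284.5 bp (quartiles 844.5 and 4097.8), against 2154 bp on II, III, IV and X. Replicate peaks had medians of 2248.5 bp and 2566 bp. Regions of 5 kb or more numbered 36 (17.1%, exact 95% interval 12.3 to 22.9), against 15.4% on the background chromosomes, and held 44.2% of the base pairs covered on V. Of these wide regions, 25 were in both replicate lists and 25 in the centre. Among all regions on V, 40.5% were in both replicate lists and 75.2% in the centre. Width and strength rose together across the 210 regions, with a Spearman's rho of 0.623, given as a description because both values come from the same peak calls. On II, III, IV and X this value was 0.681.

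**Figure D4:**
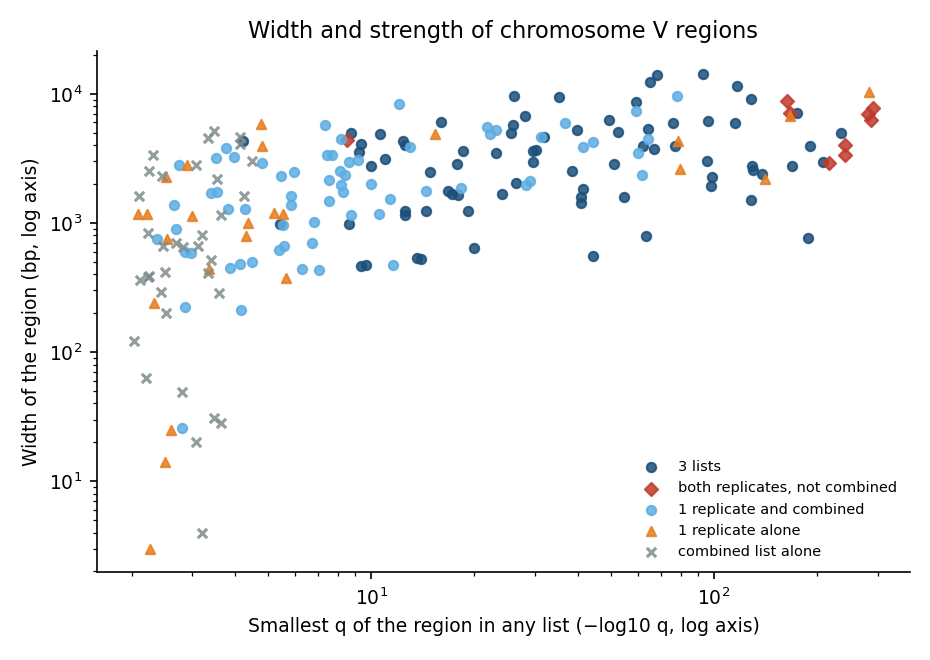
Width of the 210 chromosome V regions in bp against strength (−log10 q of the smallest q in any list), both on log axes, marked by the lists that hold them. Regions of the combined list alone lie at low strength with a median width of 659 bp, and those in all 3 lists have a median of 3073 bp.

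The 5 widest regions were domains of 10.4 to 14.1 kb. V:10711692-10725822 measured 12367 bp in replicate 1, 13301 bp in replicate 2 and 14131 bp in the combined list, with q values of 2.95e-35, 3.94e-37 and 7.38e-94. Its width and strength were nearly equal in the replicates. V:10463846-10477727 was 11232 bp wide in replicate 1 and 8735 bp in replicate 2, whose peak stopped at 10472649. V:8414964-8427301 was 1 peak in the combined list and a pair of peaks in each replicate, which broke at different places, after 8420107 in replicate 1 and after 8421847 in replicate 2. The only one of the 5 in an arm, V:4819966-4831465, had a q of 9.2e-13 in replicate 1 and 1.06e-105 in replicate 2. The narrowest of the 5 was V:6220722-6231140, the region of replicate 1 alone.

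Regions on V lay far apart in the arms and closer in the centre. The median gap between neighbours was 48.5 kb over the chromosome, 38.3 kb in the centre, 130 kb in the left arm and 167 kb in the right arm. On II, III, IV and X it was 34.2 kb, and by chromosome it ran from 25.5 kb on III to 61.9 kb on X. The median on V depended on the rows merged, and was 92.7 kb in the replicate 2 list and 100.9 kb in the replicate 1 list. Gaps over 100 kb made up 33.0% of the 209 gaps on V, 21.9% of those on the 4 other chromosomes together and 37.4% of those on X, so V lay below X. The longest ran from 2731180 to 3634343 (903 kb, in the left arm), from 15570662 to 16369958 (799 kb, at the border of the right arm) and from 17120661 to 17907873 (787 kb, in the right arm). Between neighbours that both lay in the centre, the longest gap was 372 kb.

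**Figure D5:**
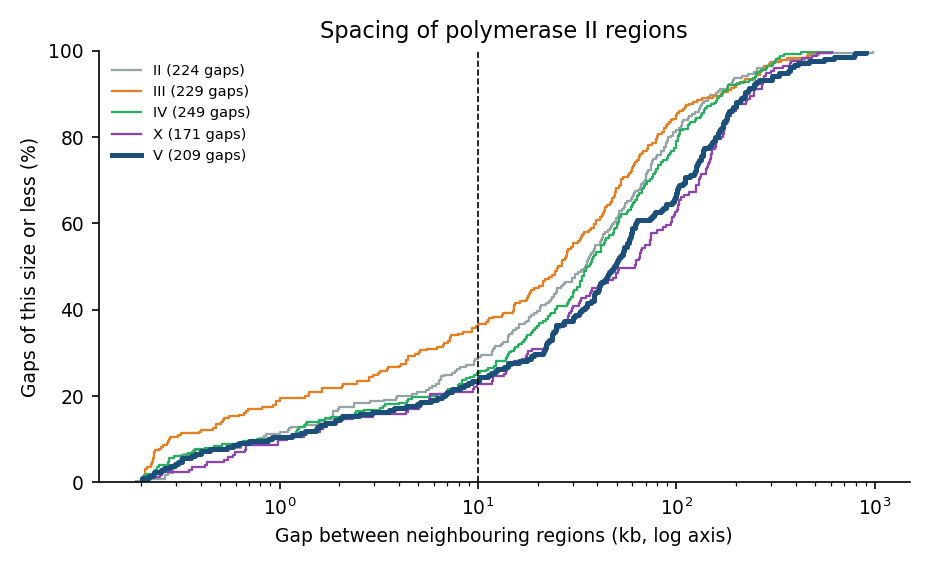
Cumulative share of gaps between neighbouring regions by gap length in kb on a log axis, for V (thick line, 209 gaps) and II, III, IV and X. The dashed line marks 10 kb, below which 23.4% of the gaps on V and 36.2% of those on III fall.

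Clusters, taken as regions with gaps of at most 10 kb, held 86 of the 210 regions (41.0%, exact 95% interval 34.2 to 47.9), against 48.2% on II, III, IV and X together and 39.0% on X. The share on V was 25.5% when rows were first merged across gaps of up to 1 kb and 25.9% with rows of a q of 1e-05 or less. There were 37 clusters, 29 of 2 regions, 6 of 3 and 2 of 5. Of the 37, 30 lay in the centre, which held 75.2% of all regions on V. The cluster with the most covered base pairs among those of 5 spanned 24.2 kb at V:9073649-9097809, of which 45.1% was covered. Its strongest member was a narrow region, V:9088561-9089320, 760 bp wide, with a q of 1.88e-44 in replicate 1, 5.04e-180 in replicate 2 and 5.75e-189 in the combined list. The first member, V:9073649-9077399, was also in all lists (q 1.48e-37, 3.79e-27 and 9.66e-68), and the last, V:9093213-9097809, was in replicate 2 (q 2.57e-29) and the combined list with no peak in replicate 1.

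The other cluster of 5, at V:9152054-9165383, consisted of weak narrow regions of 287 to 669 bp. Its strongest member, V:9160286-9160757, had a q of 0.00173 in replicate 1, 2.48e-05 in replicate 2 and 2.1e-10 in the combined list, and 2 of its 5 regions were in the combined list alone. Both clusters of 5 lay in the window from 9 to 10 Mb, which with 20 regions shared the highest count on V. The next, chosen among the 6 clusters of 3 as the one with the most covered base pairs, was V:12294998-12305786, where 95.1% of 10.8 kb was covered. There the combined list had 3 peaks, replicate 2 had 2 and replicate 1 had 1, and V:12300061-12305786 was shared by all (q 2.63e-06, 2.6e-12 and 1.08e-26).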

How the data were processed

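Polymerase II was immunoprecipitated from whole L3 larvae, and 36 bp reads were made, per the deposited sample table. The authors deposited read counts for each run, and the series description names ELAND. PeakSeq was run for each ChIP replicate and for their merged reads, against the merged input, per the source column and the sample table. The authors gave every peak a q-value, per the file headers and attribute column. Coordinates are in WormBase WS220, and no feature on V is marked as changed when carried over from an earlier build. The versions of both tools are not stated in the sources used.

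The ChIP samples had 1959480 and 2364309 uniquely mapped reads. Rows of the 3 lists were merged from 1 bp of overlap. Spans ran from base 1 to the last peak, and a region's zone was taken from its midpoint. Counts were tested with two-sided exact binomial and Fisher's exact tests, and shares have exact (Clopper-Pearson) 95% intervals, which cover counting error only. Regions named by position were the 10 with the smallest q, the 5 widest, the 3 largest clusters (ties broken by covered base pairs), the 3 longest gaps and those with a replicate q under 1e-50 and no combined-list peak. Other regions named were picked with their values known. The chromosome, the zones and these rules were chosen with earlier results of these data known. Scripts were tested on simulated data. Alternatives were single lists, a q of 1e-05 or less, rows of at least 36 bp, merging across 1 kb, other cluster gaps, base pairs or clusters as units, the span from the first peak, and 50% cover. Python 3.11.15, NumPy 2.4.6, SciPy 1.17.1, pandas 2.3.3 and Matplotlib 3.10.9 were used.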

Additional observations from a re-analysis of the deposited data

How the results depend on the processing

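The share of V regions in the centre stayed between 72.0% and 78.9% in 9 alternatives and passed in the 8 with a test. Leaving out a replicate gave 73.0% to 78.9%. The excess of the centre on V over II, III and IV passed in 10 of 11 alternatives with a test, with 8.89 percentage points when clusters were counted (Fisher's exact p = 0.0451) and 11.7 to 13.9 with 1 replicate list. Against III alone it was 4.37 and no longer passed (adjusted Fisher's exact p = 0.334). The density ratio of V to II, III, IV and X stayed below 1 in 10 alternatives, from 0.58 to 0.81. It was 0.803 by base pairs covered, where width counts as well as number, and 0.724 to 0.807 with 1 replicate list. The excess in regions found by both replicates did not pass in 3 of 4 alternatives and passed with 50% cover, at 8.39 percentage points; the cause was not tested. Fewer rows lengthened the median gap, to 92.7 and 100.9 kb in single replicate lists, and lowered the share in clusters, to 25.9% at a q of 1e-05 or less, while merging across 1 kb lowered it to 25.5%. No paired analysis was possible because peaks were listed for ChIP samples alone, each against 1 merged input. Overlap of both replicates cannot be had from 1 list.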

Other observations

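Per gene, V was the poorest of the 5 chromosomes in polymerase regions. A gene table of assembly WBcel235, used only for names and counts, lists 4995 protein-coding genes on V, and the 210 regions came to 4.2 per 100 of them. Chromosomes II, III and IV had 6.53, 8.71 and 7.62, and X had 6.3. Genes with symbols of 22 chemoreceptor families (sra, srh, str and others, receptors used mainly by sensory neurons) numbered 888 on V, or 17.8% of its protein-coding genes and 67.9% of all such symbols, against 4.9% of the genes on II, 4.66% on IV, 1.21% on X and 1.17% on III. With these genes left out of the count, V had 5.11 regions per 100 genes and remained the lowest, with 6.38 on X and 8.81 on III. The ratio of V to the 4 others was 0.58 per gene (exact binomial p = 1.02e-13) and 0.683 without chemoreceptor symbols (exact binomial p = 2.9e-07), both chosen after the data were seen. Whether any region lay at such a gene was not tested.

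On V, 8 regions were narrower than the 36 bp reads, from 3 to 31 bp, with q values of 0.000225 to 0.00544. Of these, 4 were in the combined list alone, 3 in replicate 2 alone and 7 in the centre. Among all regions on V, the same shares were 16.7%, 3.81% and 75.2%. No gap between neighbouring peaks of a list was shorter than 200 bp on V, with smallest gaps of 200 bp in replicate 1, 219 bp in replicate 2 and 202 bp in the combined list. Of the 209 gaps between regions, 22 were under 1 kb.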
